A study of Mus musculus with 12 samples.

Results

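The 37 genes described here mark macrophages and monocytes, and they were read from RNA sequencing of mouse hindlimb tissue. They were chosen by gene symbol from a table of 45777 mouse genes, of which 19740 held enough reads to be tested, and all 37 were among these. By role, 12 are general macrophage and monocyte genes, 4 mark resident macrophages, 2 mark recruited monocytes, 4 belong to a lipid-handling or repair state, 9 are Fc, scavenger and pattern receptors, and 6 are signalling, lysosome and transcription genes that other leukocytes share.

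Libraries of 3 groups, 4 each, were compared. VtA libraries came from hindlimbs given a lymph node transfer together with ABTAA, an antibody that binds angiopoietin-2 and activates the endothelial receptor Tie2. VLNT libraries came from hindlimbs given a lymph node transfer alone, and LE libraries came from hindlimbs with lymphedema and no transfer named in the labels. Strain, age, sex, the way lymphedema was induced, the time of sampling and the part of the limb taken were not given in the sources used here, nor was an untreated hindlimb analysed here. Since the labels do not say that libraries of 1 group came from separate animals, the p-values measure the spread between libraries, which may in part be technical.

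Monocytes leave the blood through the chemokine receptor Ccr2 and become macrophages in inflamed tissue, while resident macrophages persist in skin, muscle and around vessels. In tissue rich in lipid or debris, macrophages can take on a state marked by the lipid-sensing receptor Trem2 and the glycoprotein Gpnmb. Lymphedema skin is known to hold more macrophages than normal skin, and these cells are known both to promote lymphatic growth and to take part in fibrosis. Bulk RNA cannot tell fewer cells of a type from less RNA per cell, and this holds for every value below.

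Many macrophage genes are bound by the transcription factor that Spi1, itself one of the 37, encodes. Promoters of 6 members whose values carry the results are printed to show which hold the core letters of that factor's site, GAGGAA. Each line gives the 250 bases before the RefSeq start site in build GRCm38.p6, 5′ to 3′ on the gene's strand, with the core letters or their reverse complement TTCCTC in capitals.
Cd68 chr11:69666171-69666420 minus strand: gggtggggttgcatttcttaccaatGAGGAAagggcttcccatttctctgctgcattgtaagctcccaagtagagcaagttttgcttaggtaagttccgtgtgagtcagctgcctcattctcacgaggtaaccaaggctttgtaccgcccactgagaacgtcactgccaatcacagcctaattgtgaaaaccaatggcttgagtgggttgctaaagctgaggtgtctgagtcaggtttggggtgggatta
Clec4e chr6:123289872-123290121 minus strand: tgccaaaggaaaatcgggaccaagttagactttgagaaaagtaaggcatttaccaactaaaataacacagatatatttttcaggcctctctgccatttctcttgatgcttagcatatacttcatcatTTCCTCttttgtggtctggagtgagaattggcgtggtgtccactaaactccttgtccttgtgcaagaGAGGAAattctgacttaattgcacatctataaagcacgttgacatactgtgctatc
Trem2 chr17:48346151-48346400 plus strand: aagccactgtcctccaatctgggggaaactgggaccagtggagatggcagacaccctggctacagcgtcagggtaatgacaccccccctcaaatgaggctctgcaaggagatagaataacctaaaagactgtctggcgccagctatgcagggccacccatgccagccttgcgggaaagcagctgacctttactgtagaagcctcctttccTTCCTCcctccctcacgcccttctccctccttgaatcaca
Gpnmb chr6:49036268-49036517 plus strand: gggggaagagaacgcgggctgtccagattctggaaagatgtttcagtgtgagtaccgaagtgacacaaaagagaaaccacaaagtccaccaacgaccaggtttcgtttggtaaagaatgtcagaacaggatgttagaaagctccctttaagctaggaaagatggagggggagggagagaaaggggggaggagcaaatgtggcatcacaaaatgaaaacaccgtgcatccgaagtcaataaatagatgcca
Folr2 chr7:101857191-101857440 minus strand: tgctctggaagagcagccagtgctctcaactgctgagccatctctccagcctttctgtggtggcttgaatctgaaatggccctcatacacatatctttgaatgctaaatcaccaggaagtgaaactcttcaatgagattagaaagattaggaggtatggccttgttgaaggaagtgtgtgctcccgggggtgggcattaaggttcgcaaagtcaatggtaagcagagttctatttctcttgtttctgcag
Cd163 chr6:124304401-124304650 plus strand: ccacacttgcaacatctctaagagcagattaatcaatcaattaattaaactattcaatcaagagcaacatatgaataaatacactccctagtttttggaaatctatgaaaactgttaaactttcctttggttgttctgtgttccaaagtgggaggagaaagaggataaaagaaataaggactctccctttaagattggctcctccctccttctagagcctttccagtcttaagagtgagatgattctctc
The core letters were present on 1 strand or the other in 16 of the 29 member promoters found in the RefSeq table (55.2%), and in 23.1% of all 27025 promoters of this length. The longer form GAGGAAGT, which contains the core, was present in 3 of 29 (10.3%), those of Pf4, Spp1 and Ly6c2, and in 2.44% of all. CACGTG, the letters of an E-box bound by lysosomal regulators, was present in 0 of 29 and in 6.05% of all. A match is a match of letters only. Gpnmb, Folr2 and Cd163 hold no GAGGAA in this window.

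Libraries held 56042030 to 72540147 assigned reads, and the 37 genes took 0.0112% to 0.423% of them. Levels are given as CPM, counts scaled to a common library size by the trimmed mean of M values, so that 3 reads correspond to 0.0292 to 0.0755 CPM. LE4 stood apart from LE1 to LE3. Keratinocyte genes summed to 29.1 CPM in LE4 against 16661 to 30051 CPM in LE1 to LE3, and skeletal muscle genes took 16.3% of its reads against 1.07% to 7.26%. VtA1 was also nearly without keratinocyte RNA, at 51.9 CPM against 1315 to 8149 CPM in the other VtA libraries. In LE1, mitochondrial genes took 0.433% of reads, against 7.62% to 25.9% elsewhere. Many results against LE are also given without LE4, and counts over the members also without LE1. By gene, single values of VtA against LE without LE1 are given only for Cd14, Aif1, Trem2, Spp1, Clec4e and Msr1. With LE1 left out and LE4 kept, edgeR called none of the members in that comparison.

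The summed level of the 37 genes was low in the VtA libraries. It was 271, 531, 1035 and 297 CPM in VtA1 to VtA4, against 1861, 1698, 1920 and 588 CPM in VLNT1 to VLNT4 and 4049, 1144, 2824 and 166 CPM in LE1 to LE4. VtA3 was the highest VtA library, VLNT4 lay within the VtA range, and LE4 was the lowest of all 12. The means were 533 ± 354 CPM in VtA, 1517 ± 626 CPM in VLNT and 2046 ± 1729 CPM in LE (SD, n = 4 each).

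**Figure D1:**
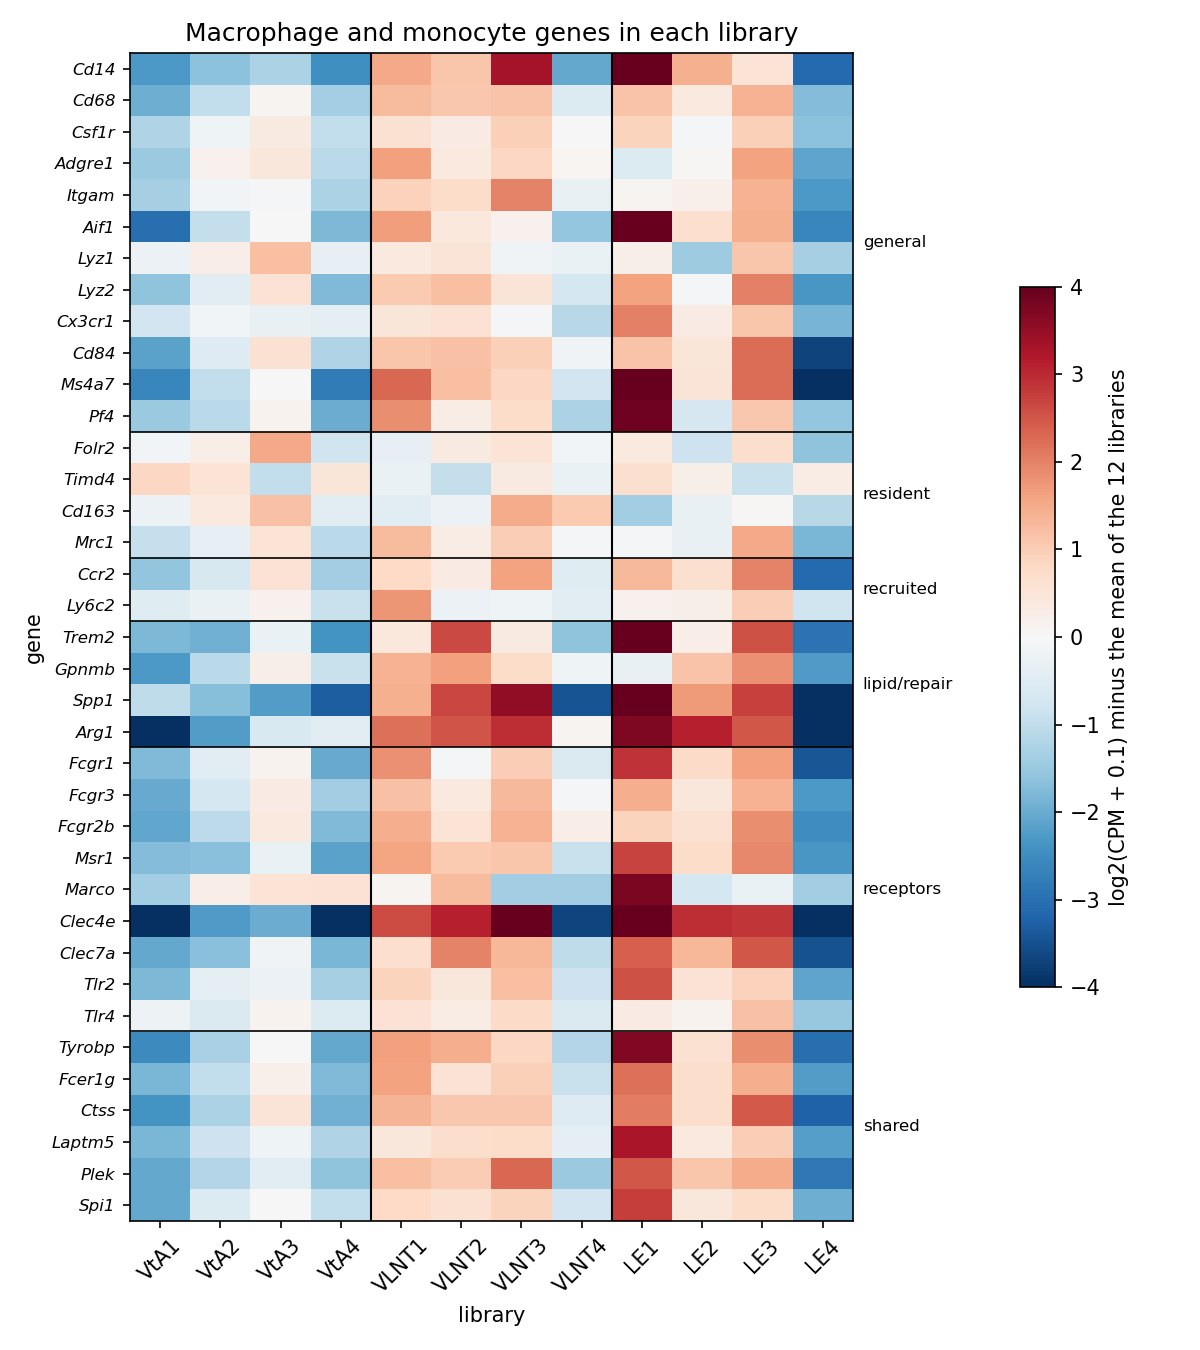
Heat map of the 37 genes (rows, ordered by role) in the 12 libraries (columns), as log2(CPM + 0.1) minus each gene's mean over the libraries; colours are limited to 4 log2 units either way. Most rows are blue in VtA1, VtA2, VtA4 and LE4 and red in LE1 and LE3. Of the resident genes, Timd4 does not follow this pattern, Cd163 departs from it in VtA2 and LE1, and Folr2 departs from it in VtA2.

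Between VtA and VLNT, which differ by the antibody, 33 of 37 genes had lower fitted levels in VtA, with a median log2 fold change of -1.62. Over all tested genes 53.3% were lower and the median was -0.07. No gene passed edgeR's quasi-likelihood test at an adjusted p of 0.05 (0.0% of genes), and the lowest adjusted p among the 37 was 0.653. At an unadjusted p under 0.05, 10 of the 37 were lower and 0 higher, where 5.36% of all genes were lower and 0.304% higher. DESeq2 called 152 genes, among them 1 member, Spp1 (adjusted p = 0.0481), where 0.765% of all genes were called lower. limma-voom with sample weights called 3606 genes, 19 of them members and all lower in VtA, where 10% of all genes were called lower. Arg1 was the 1 member whose VtA libraries all lay below every VLNT library, as did 8.32% of all genes. Without VLNT4 this held for 25 members and 17.2% of all genes. Without LE4 in the shared fit, edgeR still called 0 members here (0.0507% of all genes were called lower).

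Between VtA and LE, 33 of 37 genes again had lower fitted levels in VtA, with a median log2 fold change of -2.05, beside 54.4% lower and a median of -0.11 over all genes. edgeR called 0 genes (0.0%), with a lowest adjusted p of 0.288 among the 37. At an unadjusted p under 0.05, 19 members were lower and 0 higher, where 13.5% of all genes were lower and 3.04% higher. DESeq2 called 797 genes and 12 members, all 12 lower: Aif1, Cd14, Laptm5, Msr1, Spp1, Tyrobp, Plek, Clec4e, Clec7a, Pf4, Trem2 and Ms4a7 (3.93% of all genes were called lower). limma-voom with sample weights called 10639 genes and 30 members, all lower, where 25.9% of all genes were called lower. This comparison and the one before it share the VtA libraries, so their values are not independent.

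The VtA and LE comparison turned on LE4. Of all 12 libraries, LE4 had the lowest sum of the 37 genes, at 166 CPM, so leaving it out raises their summed level in LE. The calls and adjusted p-values without LE4 are therefore a description, also where they are given by gene below. Without LE4, edgeR called 26 of the 37 members, all lower in VtA, with adjusted p between 0.00862 and 0.0491, where 17.2% of all genes were called lower. The median log2 fold change of the 37 was then -2.46. The VtA libraries lay wholly below LE1 to LE3 for 25 members and 20.1% of all genes, while with LE4 included this held for 0 members and 1.27% of all genes. By role, the calls were 8 of 12 general, 0 of 4 resident, 1 of 2 recruited and 4 of 4 lipid or repair genes, 7 of 9 receptors and 6 of 6 shared genes. Leaving out VtA1 as well as LE4, which removes both libraries nearly without keratinocyte RNA, gave 17 member calls, again all lower, where 10.1% of all genes were called lower. These were 3 general, 0 resident, 0 recruited and 3 lipid or repair genes, 5 receptors and 6 shared genes. Leaving out LE1 and LE4 together, an alternative chosen after seeing the data, gave 19 member calls, all lower, where 14.8% of all genes were called lower. Without LE1 alone, edgeR called 0 members, 32 of 37 had lower fitted levels, and their median log2 fold change was -1.34.

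**Figure D2:**
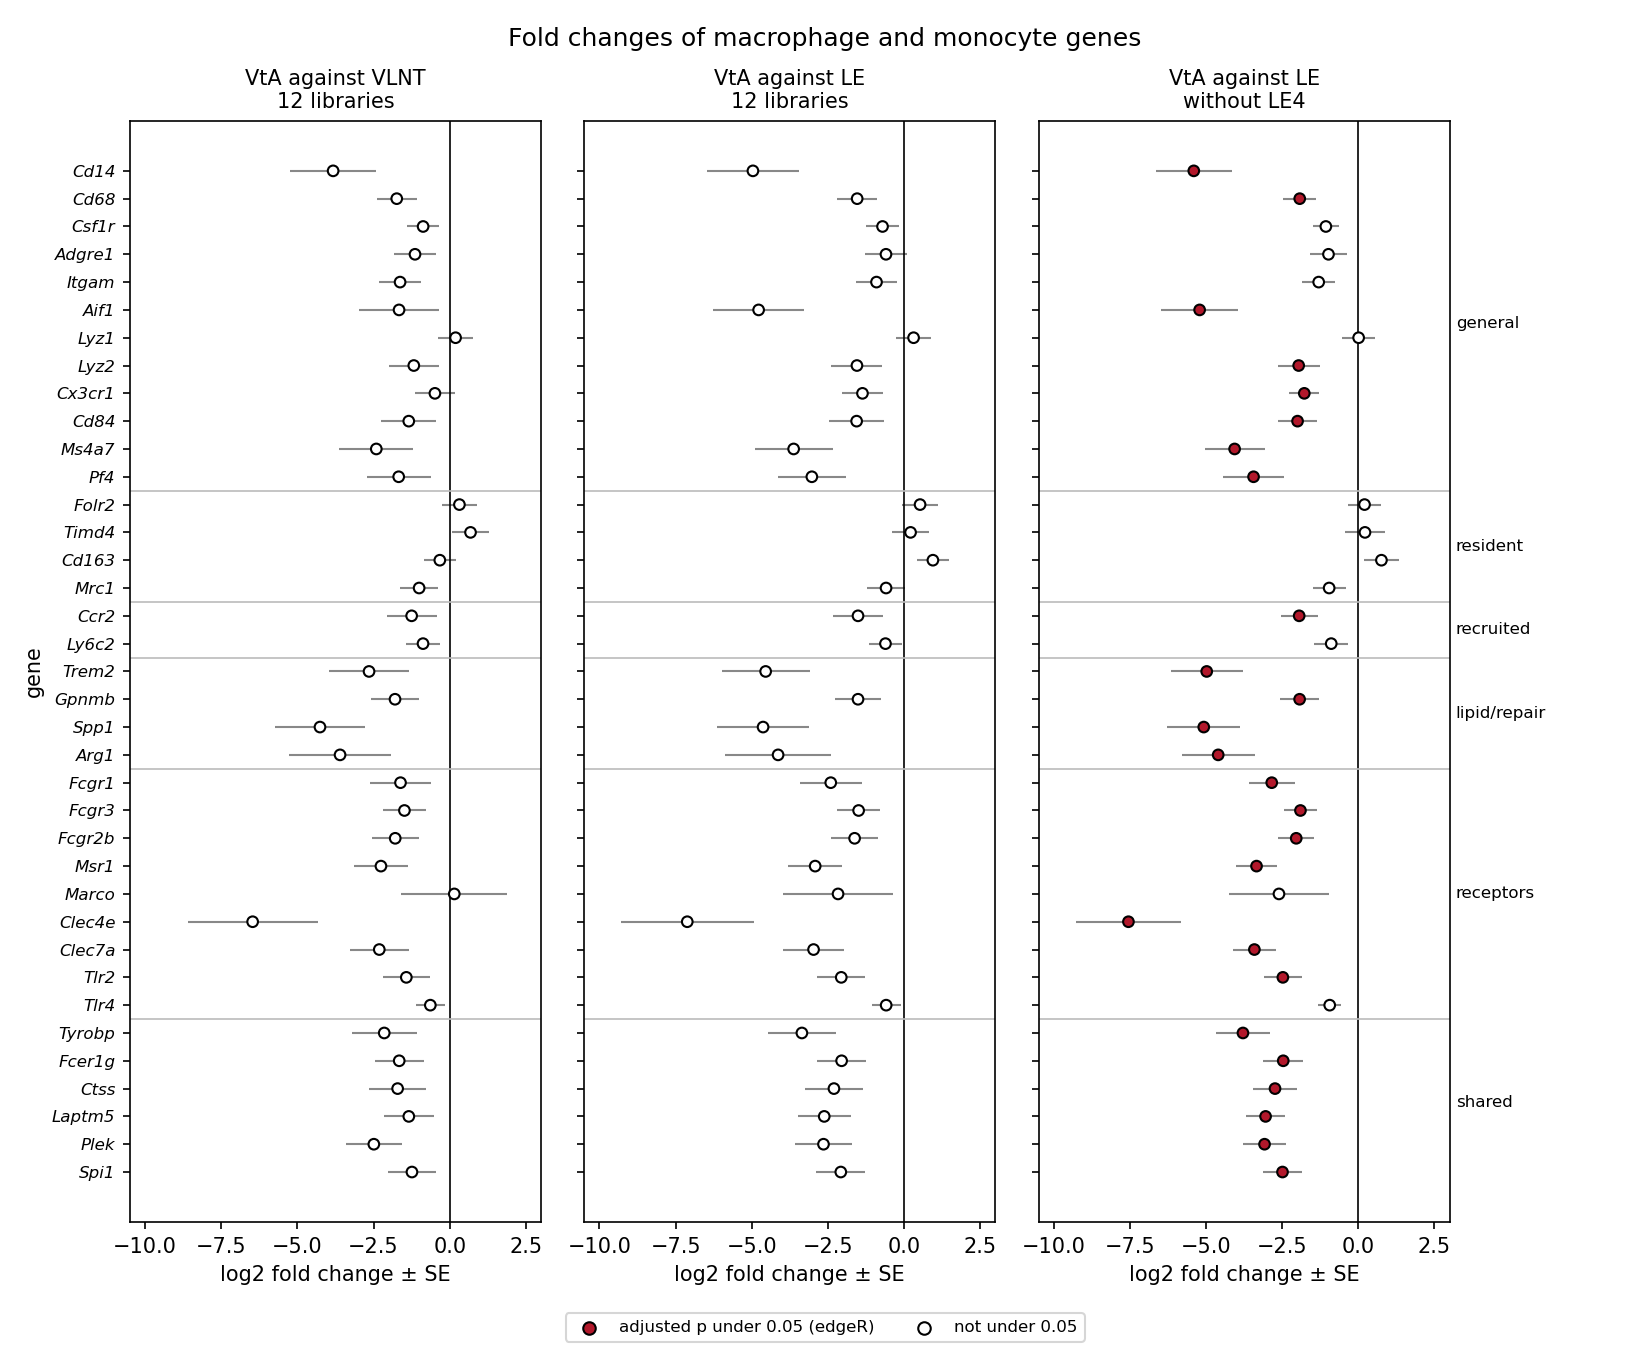
Log2 fold changes with standard errors for each gene (rows, grouped by role): VtA against VLNT and VtA against LE with all 12 libraries, and VtA against LE without LE4. Filled points passed edgeR's test after adjustment over all genes: 0 in the first 2 panels and 26 in the last, all to the left of 0, with none among the resident genes.

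Of the general genes, Cd68, a lysosomal glycoprotein of macrophages, had 4.81, 9.501, 20.7 and 7.40 CPM in VtA1 to VtA4, 46.2, 40.1, 42.2 and 13.1 CPM in VLNT1 to VLNT4, and 42.4, 25.0, 49.98 and 5.70 CPM in LE1 to LE4. VtA libraries lay below VLNT1 to VLNT3 and below LE1 to LE3, and VLNT4 and LE4 overlapped them. The log2 fold change was -1.74 ± 0.65 (SE) against VLNT (edgeR adjusted p = 0.653) and -1.54 ± 0.65 against LE (adjusted p = 0.294). Against LE without LE4 it was -1.92 ± 0.54 (edgeR adjusted p = 0.0229).

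Csf1r, the receptor on which macrophage survival depends, had 26.5, 54.4, 77.8 and 30.6 CPM in VtA libraries, 93.2, 77.2, 117 and 59.6 CPM in VLNT libraries and 113, 57.5, 118 and 19.4 CPM in LE libraries. Adgre1, the adhesion receptor widely used as a mouse macrophage marker, had 6.50, 20.7, 25.3 and 8.64 CPM in VtA, 57.7, 24.5, 32.9 and 19.6 CPM in VLNT and 12.5, 19.2, 56.1 and 4.20 CPM in LE. Both genes overlapped between all groups. Their log2 fold changes against VLNT were -0.87 ± 0.53 and -1.14 ± 0.70, and against LE -0.70 ± 0.53 and -0.59 ± 0.70. Without LE3, Adgre1 was at 0.31 against LE. Neither passed edgeR's test against LE without LE4 (adjusted p = 0.0711 for Csf1r and 0.234 for Adgre1).

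Cd14, the lipopolysaccharide co-receptor, spread far more widely. It had 1.99, 3.22, 4.22 and 1.79 CPM in VtA, 29.5, 22.4, 105 and 2.40 CPM in VLNT and 305.4, 28.0, 15.2 and 1.10 CPM in LE. All VtA libraries were under 5 CPM, as were VLNT4 and LE4. Its log2 fold change was -3.83 ± 1.42 against VLNT and -4.96 ± 1.50 against LE, and -5.40 ± 1.26 against LE without LE4 (edgeR adjusted p = 0.0128). The size against LE rested on LE1: without that library it was -2.40 ± 1.10 (edgeR adjusted p = 0.573). Against VLNT it was -2.69 without VLNT3.

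Aif1, an actin-binding protein of macrophages and microglia, had 0.60, 2.83, 5.70 and 1.55 CPM in VtA and 268, 9.12, 15.2 and 0.84 CPM in LE, with 18.1, 7.60, 6.39 and 1.85 CPM in VLNT. LE1 was far above every other library. The log2 fold change against LE was -4.77 ± 1.50 with all libraries (edgeR adjusted p = 0.288) and -5.21 ± 1.26 without LE4 (adjusted p = 0.0144), but -1.65 ± 0.98 without LE1 (adjusted p = 0.573), and with LE1 and LE4 both left out Aif1 was not called.

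The other 7 general genes had log2 fold changes of -2.41 (Ms4a7) to 0.19 (Lyz1) against VLNT and -3.62 (Ms4a7) to 0.32 (Lyz1) against LE. Without LE4, Ms4a7, a membrane protein of mature macrophages, Pf4, a chemokine shared with platelets, and the fractalkine receptor Cx3cr1 were lower in VtA than in LE, as were Cd84 and Lyz2. Itgam, an integrin subunit on monocytes and neutrophils, was not called there (adjusted p = 0.0873). Platelet genes other than Pf4 summed to 1.76 to 4.85 CPM in VtA, 4.19 to 23.5 CPM in VLNT and 2.32 to 73.7 CPM in LE. The sum and Pf4 were both highest in LE1, but within VtA the sum was highest in VtA2 and Pf4 in VtA3. In LE1 the platelet genes Gp1bb and Itga2b had 3012 and 596 reads, while Gp9 and Gp1ba had 0. The part of platelet RNA in the Pf4 values was not tested. Lyz2 and Lyz1 encode lysozymes with 95.8% identical transcripts over 1264 aligned bases, so reads could have been split between them. On the length-scaled TPM values Lyz2 was the highest of the 37, at a mean of 633 TPM over the 12 libraries, and Marco the lowest, at 0.28 TPM.

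Of the 4 resident genes, 2 had lower fitted levels in VtA than in VLNT and 1 had a lower level than in LE, where the median log2 fold change of the 4 was 0.37. For the 12 general genes these counts were 11 and 11, with medians of -1.49 against VLNT and -1.54 against LE. Folr2, a folate receptor of resident macrophages, had 5.09, 6.53, 15.6 and 3.06 CPM in VtA, 4.28, 7.06, 7.90 and 5.01 CPM in VLNT and 7.22, 3.03, 8.98 and 1.73 CPM in LE. Cd163, the scavenger receptor for haemoglobin bound to haptoglobin, had 12.1, 18.8, 32.2 and 10.6 CPM in VtA, 10.5, 11.99, 40.5 and 29.4 CPM in VLNT and 5.38, 11.60, 14.6 and 6.53 CPM in LE. For both genes the groups overlapped, with VtA3 the highest VtA library. Folr2 differed by 0.32 ± 0.58 against VLNT and 0.53 ± 0.58 against LE on the log2 scale, and Cd163 by -0.32 ± 0.52 and 0.95 ± 0.53. The Folr2 values rested on VtA3: without it they were -0.34 and -0.15, and on log2(TPM + 1) the value against VLNT was -0.37.

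Timd4, a phosphatidylserine receptor of long-lived resident macrophages, was near the detection limit, at 0.83, 0.67, 0.17 and 0.64 CPM in VtA, 0.34, 0.17, 0.57 and 0.34 CPM in VLNT and 0.73, 0.52, 0.18 and 0.55 CPM in LE. No group stood apart in it (log2 fold changes 0.68 ± 0.62 and 0.22 ± 0.61). Mrc1, the mannose receptor, had 25.0, 37.5, 69.8 and 22.4 CPM in VtA, 113, 58.5, 93.7 and 44.7 CPM in VLNT and 45.7, 38.6, 135 and 13.3 CPM in LE. Of the 4 it came closest to the general genes, at -1.004 ± 0.62 against VLNT and -0.59 ± 0.62 against LE, where it was at 0.22 without LE3. None of the 4 passed edgeR's test in either comparison, with all libraries or without LE4, where the lowest adjusted p was 0.188. limma-voom with sample weights called Mrc1 lower against LE (adjusted p = 0.0458) and none of the other 3.

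Both recruited genes had lower fitted levels in VtA than in VLNT and LE, with a median of -1.06 in each comparison. Ccr2 had 6.27, 12.2, 28.2 and 7.25 CPM in VtA, 32.8, 23.8, 58.1 and 13.5 CPM in VLNT and 47.1, 29.7, 74.7 and 2.11 CPM in LE. VtA libraries lay below LE1 to LE3 and overlapped VLNT2 and VLNT4. Its log2 fold change was -1.25 ± 0.82 against VLNT and -1.51 ± 0.83 against LE, and -1.94 ± 0.60 against LE without LE4 (edgeR adjusted p = 0.0332). Ly6c2, a surface protein of inflammatory monocytes, had 3.65, 4.29, 5.77 and 2.75 CPM in VtA, 17.6, 4.37, 4.56 and 3.73 CPM in VLNT and 5.81, 6.02, 10.4 and 2.89 CPM in LE. VLNT1 alone stood out among the VLNT libraries. Its transcript is 97.6% identical to that of Ly6c1, an endothelial and lymphocyte gene, over 822 aligned bases, so its reads are uncertain. The log2 fold changes were -0.88 ± 0.55 against VLNT, which became -0.036 without VLNT1, and -0.61 ± 0.55 against LE.

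All 4 lipid or repair genes had lower fitted levels in VtA, and their medians of -3.12 against VLNT and -4.34 against LE were the lowest of the 6 roles. Spp1, which encodes the secreted phosphoprotein osteopontin, had 9.09, 5.67, 3.85 and 1.79 CPM in VtA, 50.1, 118, 221 and 1.60 CPM in VLNT and 319, 60.5, 124 and 0.78 CPM in LE. Arg1, the arginase of alternatively activated macrophages, had 0, 2.47, 7.72 and 8.67 CPM in VtA, 54.8, 69.1, 92.5 and 12.96 CPM in VLNT and 162, 104, 66.5 and 0 CPM in LE. In Arg1 every VtA library lay below every VLNT library, and in Spp1 VLNT4 and LE4 lay below all VtA libraries. The Spp1 log2 fold change was -4.26 ± 1.48 against VLNT (edgeR adjusted p = 0.653) and -4.63 ± 1.50 against LE (adjusted p = 0.288). The Arg1 values were -3.60 ± 1.69 and -4.13 ± 1.73. Arg1 was at 0 CPM in VtA1 and LE4, both nearly without keratinocyte RNA. Keratinocyte genes also separated VtA from VLNT, with sums of at most 8149 CPM against at least 12714 CPM. The part of keratinocyte RNA in the Arg1 values was not tested.

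Trem2 had 0.73, 0.65, 2.28 and 0.45 CPM in VtA, 3.71, 17.8, 3.59 and 0.83 CPM in VLNT and 76.0, 3.35, 16.8 and 0.27 CPM in LE. Gpnmb had 7.13, 16.9, 42.2 and 19.4 CPM in VtA, 94.6, 111, 60.1 and 31.6 CPM in VLNT and 29.2, 79.8, 127 and 7.41 CPM in LE. VtA3 lay above VLNT4, LE1 and LE4 in Gpnmb and above VLNT4 and LE4 in Trem2. Against LE without LE4, all 4 genes were lower in VtA by edgeR, at -4.98 ± 1.19 for Trem2 (adjusted p = 0.0139), -1.93 ± 0.64 for Gpnmb (adjusted p = 0.0408), -5.07 ± 1.20 for Spp1 (adjusted p = 0.0134) and -4.60 ± 1.20 for Arg1 (adjusted p = 0.0182). With LE4 kept, the Trem2 value against LE was -4.54 with all libraries and -2.72 ± 1.23 without LE1, and that of Spp1 was -3.60 ± 1.47 without LE1 (edgeR adjusted p = 0.573 for both). Against VLNT, Trem2 was at -2.65, or -1.39 without VLNT2. Gpnmb is also a melanocyte and osteoclast gene: melanocyte markers summed to 0 to 5.65 CPM in VtA, 3.11 to 32.7 CPM in VLNT and 0.106 to 24.6 CPM in LE, and osteoclast markers to 12.99 to 194, 99.8 to 336 and 11.4 to 532 CPM in the same order. Their part in the Gpnmb values was not tested.

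Among the receptors, Clec4e, a C-type lectin that senses mycobacterial glycolipid and dead cells, was at 0 reads in VtA1 and VtA4. It had 0, 0.33, 0.42 and 0 CPM in VtA, 12.4, 17.6, 38.5 and 0.06 CPM in VLNT and 76.9, 15.6, 14.7 and 0 CPM in LE. VLNT4 and LE4 were as low as the VtA libraries, and the others were at least 12 CPM. The fitted log2 fold changes, which depend on the prior count for such libraries, were -6.47 ± 2.13 against VLNT and -7.12 ± 2.19 against LE, or -5.71 against LE without LE1. Msr1, a scavenger receptor for modified lipoprotein, had 1.56, 1.63, 4.51 and 1.15 CPM in VtA, 16.5, 11.3, 11.8 and 2.87 CPM in VLNT and 36.2, 9.11, 20.7 and 0.99 CPM in LE. VtA libraries lay below VLNT1 to VLNT3 and below LE1 to LE3. Its log2 fold change was -2.26 ± 0.87 against VLNT and -2.92 ± 0.89 against LE, and -3.34 ± 0.68 against LE without LE4 (edgeR adjusted p = 0.00862). With LE4 kept and LE1 left out, Msr1 was at -2.21 ± 0.87 (edgeR adjusted p = 0.573). Clec7a, the beta-glucan receptor, also had an adjusted p of 0.00862 without LE4, with -3.41 ± 0.69.

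The Fc receptors Fcgr1, Fcgr2b and Fcgr3 had log2 fold changes of -1.62 ± 0.99, -1.79 ± 0.77 and -1.49 ± 0.71 against VLNT, and of -2.40 ± 1.01, -1.62 ± 0.76 and -1.49 ± 0.71 against LE. All 3 were called without LE4 (edgeR adjusted p = 0.0188, 0.0272 and 0.0257). Fcgr2b and Fcgr3 share 96.5% of 509 aligned transcript bases, so their reads could have been split. Of the Toll-like receptors, Tlr2 was called without LE4 (-2.48 ± 0.61, adjusted p = 0.0154) and Tlr4 was not (-0.94 ± 0.37, adjusted p = 0.0741). Marco, a scavenger receptor of marginal-zone and alveolar macrophages, was at or under 0.528 CPM in every library but LE1, which had 3.42 CPM.

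Of the genes shared with other leukocytes, Plek, a protein kinase C substrate, had 3.70, 6.86, 11.3 and 5.05 CPM in VtA, 36.2, 31.6, 77.9 and 5.56 CPM in VLNT and 88.4, 33.7, 43.9 and 2.07 CPM in LE. VtA libraries lay below VLNT1 to VLNT3 and LE1 to LE3. Its log2 fold change was -2.49 ± 0.93 against VLNT and -2.64 ± 0.93 against LE. The adaptors Tyrobp and Fcer1g, the protease Ctss, the lysosomal protein Laptm5 and Spi1 ranged from -2.15 to -1.24 against VLNT and from -3.35 to -2.05 against LE. All 6 were called against LE without LE4, and also with VtA1 left out too.

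VLNT and LE differ, by the labels, in the transfer alone. Fitted levels were lower in VLNT for 25 of 37, with a median log2 fold change of -0.39, beside 48.7% lower and a median of 0.01 over all genes. edgeR called 0 genes (0.0%), DESeq2 1 gene (0.00507%, lower) and 0 members, and limma-voom with sample weights 1362 genes (0.562% lower) and 0 members. For 0 members did the VLNT libraries lie wholly below the LE libraries, as they did for 0.177% of all genes. At an unadjusted edgeR p under 0.05, 1 member was lower, where 1.87% of all genes were, and 1 higher, where 0.137% were. The higher one was Cd163, at 1.27 ± 0.53 (edgeR adjusted p = 0.99992), and the lower one Aif1, at -3.11 ± 1.38. Laptm5 (-1.28 ± 0.83), Trem2 (-1.89 ± 1.28) and Cx3cr1 (-0.88 ± 0.67) came next by p, and the other 32 genes lay between -2.32 (Marco) and 0.73 (Itgam). The count of lower genes turned on LE1: without it 8 of 37 were lower, with Aif1 at 0.02, Laptm5 at 0.22, Trem2 at -0.07 and Cx3cr1 at -0.21, and without LE4 32 of 37 were lower.

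A difference within a library hardly depends on how that library was scaled. The exception is a gene near 0 reads, such as Arg1 in VtA1 and LE4, whose value depends on the prior count. In each library, the mean log2 CPM of a subset was set against that of 8 general genes (Cd68, Csf1r, Adgre1, Itgam, Aif1, Ms4a7, Cd84 and Cx3cr1). For the 4 resident genes it was 0.94, -0.13, -0.47 and 0.10 in VtA, -2.04, -1.76, -0.82 and -0.14 in VLNT and -2.70, -1.44, -2.08 and 0.68 in LE. VtA libraries lay above VLNT1 to VLNT3 and LE1 to LE3, VLNT4 was within their range, and LE4 lay among them. The means were 0.11 ± 0.60 in VtA, -1.19 ± 0.87 in VLNT and -1.39 ± 1.47 in LE (SD, n = 4 each). The highest values were those of VtA1 and LE4, both nearly without keratinocyte RNA. By gene, the VtA mean was above the VLNT mean by 1.56 for Folr2, 2.02 for Timd4, 1.22 for Cd163 and 0.40 for Mrc1. The largest of these, Timd4, was near the detection limit, with 12 to 51 reads per library.

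For the 4 lipid or repair genes the within-library difference was -1.52, -1.20, -0.78 and -0.34 in VtA, 0.21, 1.73, 1.16 and -0.66 in VLNT and 1.39, 1.34, 0.96 and -1.99 in LE. Again VLNT4 and LE4 sat with the VtA libraries or below them. The group means were -0.96 ± 0.52 in VtA, 0.61 ± 1.05 in VLNT and 0.42 ± 1.62 in LE. By gene the VtA mean minus the VLNT mean was -3.50 for Arg1, where VtA1 had 0 reads, -1.67 for Spp1, -0.67 for Trem2 and -0.45 for Gpnmb. Trem2 and Gpnmb thus differed from the general genes by less than the SD among VLNT libraries in Trem2 (1.40) and by about the SD in Gpnmb (0.42). For the recruited pair the means were 0.12 ± 0.34 in VtA, -0.38 ± 0.36 in VLNT and -0.30 ± 0.69 in LE, with Ccr2 differing between VtA and VLNT by 0.14 and Ly6c2 by 0.86.

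**Figure D3:**
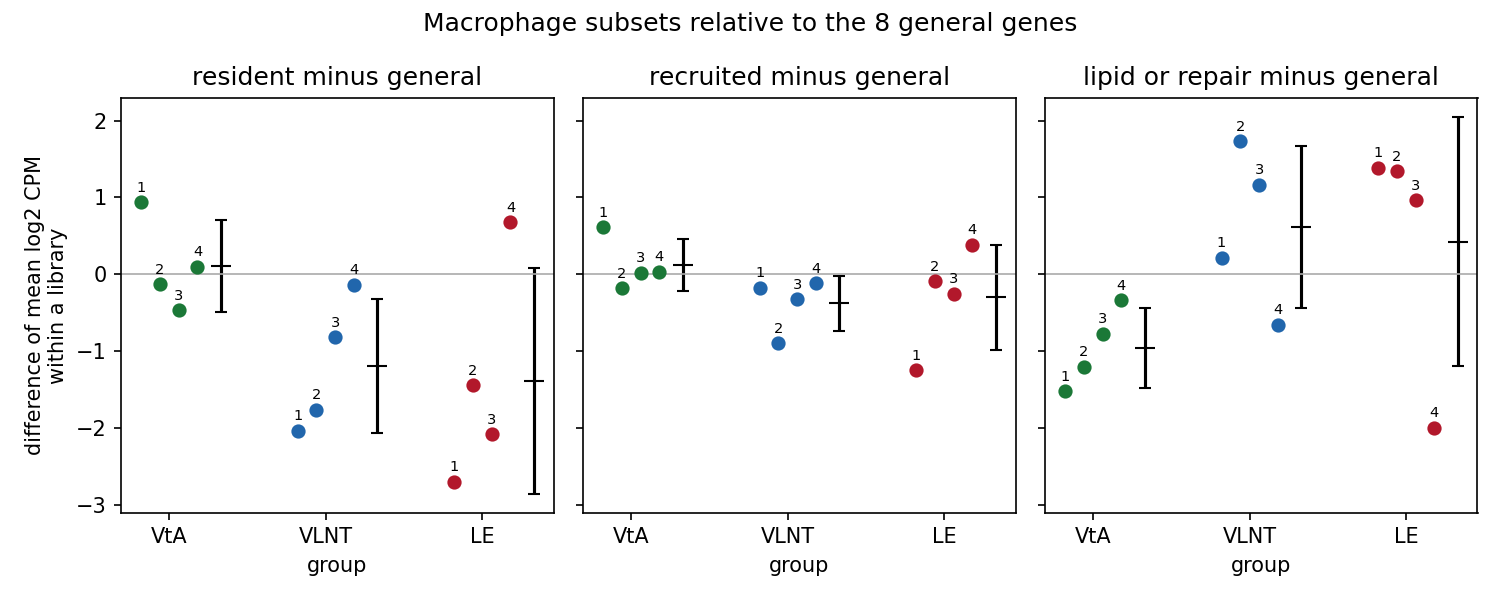
Mean log2 CPM of the resident, recruited and lipid or repair genes minus that of 8 general genes, for each library (points, numbered by replicate) with the group mean and SD (bars). Resident genes average 0.11 in VtA, -1.19 in VLNT and -1.39 in LE, and lipid or repair genes average -0.96, 0.61 and 0.42 in the same groups, with LE4 among or beyond the VtA libraries in both panels.

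The general genes moved together with leukocyte genes as a whole. Their mean log2 CPM minus that of 8 pan-leukocyte genes, among them Ptprc and Coro1a, was -0.23 ± 0.30 in VtA, -0.21 ± 0.11 in VLNT and -0.33 ± 0.22 in LE, and it stayed between -0.58 and 0.16 in all 12 libraries. Neutrophil genes ran over a wider range, with sums of 2.17 to 134 CPM in VtA, 50.8 to 792 CPM in VLNT and 1.42 to 12323 CPM in LE, where LE1 was highest and LE4 lowest. T cell genes summed to 0.755 to 21.8 CPM in VtA, 15.4 to 61.0 CPM in VLNT and 0.613 to 125 CPM in LE. B cell genes stayed at 1.09 to 6.40 CPM in VtA, 0.586 to 8.62 CPM in VLNT and 1.29 to 6.96 CPM in LE.

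Tissue make-up moved with the groups too. Keratinocyte genes summed to 51.9 to 8149 CPM in VtA, 12714 to 22559 CPM in VLNT and 29.1 to 30051 CPM in LE, and skeletal muscle genes took 12.4% to 15.98% of reads in VtA, 4.12% to 13.4% in VLNT and 1.07% to 16.3% in LE. With a keratinocyte score in the edgeR fit the median log2 fold change of the 37 genes was -0.32 against VLNT and -0.97 against LE, and with a muscle score -0.98 and -1.07. The groups and the share of skin and muscle in the tissue cannot be told apart with these libraries.

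**Figure D4:**
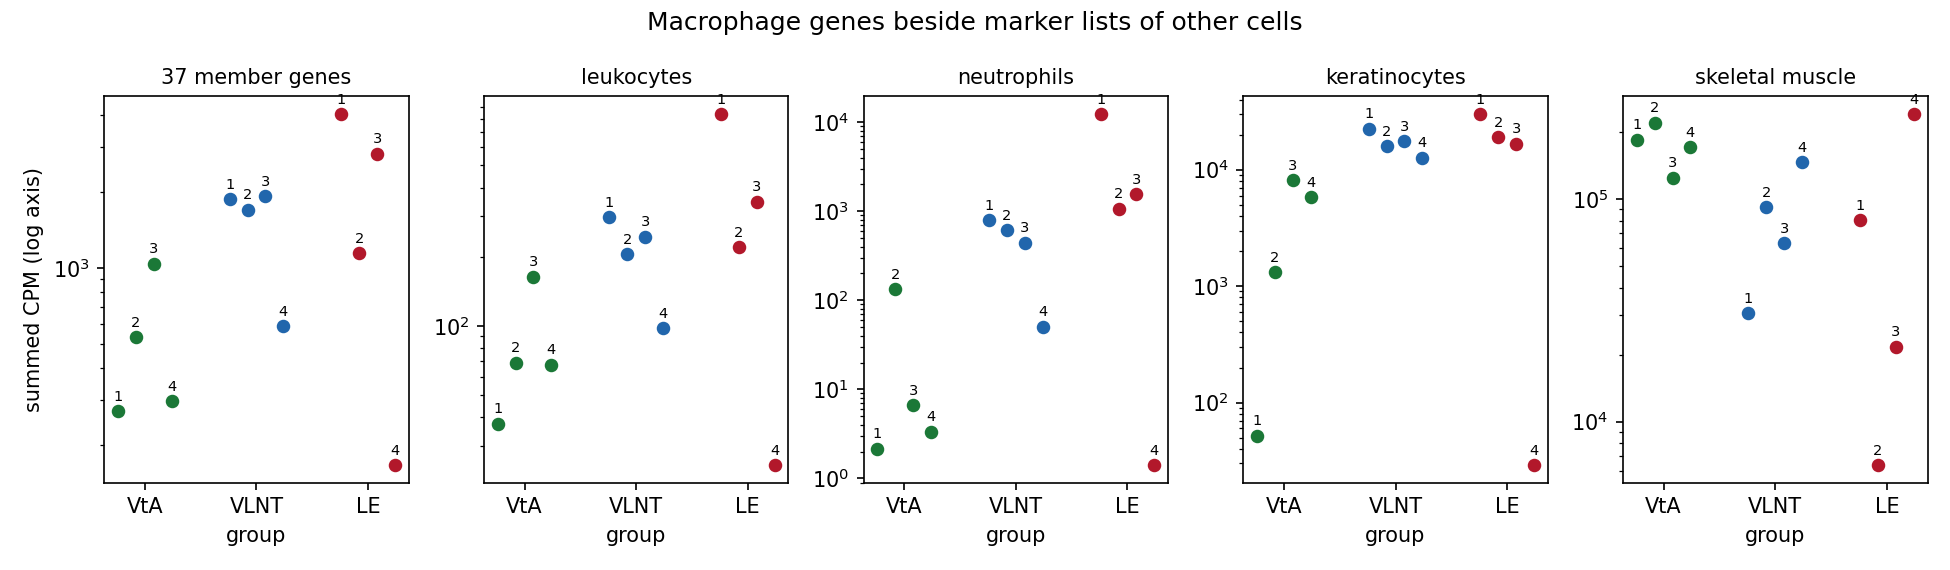
Summed CPM (log axis) of the 37 genes and of marker lists for leukocytes, neutrophils, keratinocytes and skeletal muscle in each library (points, numbered by replicate). LE4 has the lowest sum of the 37 genes (166 CPM) and of keratinocyte genes (29.1 CPM) and the highest of muscle genes, and the VtA libraries lie below VLNT1 to VLNT3 in the first panel.

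Further genes of the pathway, in 5 lists, had mostly lower fitted levels in VtA, and edgeR called 0 of them with all libraries. Growth factors and chemoattractants were lower in VtA than in VLNT for 8 of 9 tested, with a median log2 fold change of -1.92, and 6 of 9 were called lower against LE without LE4, where 17.2% of all genes were. Ccl2, the chemokine that draws Ccr2-bearing monocytes, had 0.48, 0.54, 2.74 and 0.64 CPM in VtA, 12.3, 3.83, 3.46 and 1.14 CPM in VLNT and 9.10, 5.74, 8.62 and 0.68 CPM in LE. Csf2rb, the shared signalling chain of cytokine receptors, was at -1.92 ± 0.86 against VLNT and -2.64 ± 0.88 against LE. Macrophage transcription factors were lower for 9 of 12 (median -0.82), with Runx1, a factor of blood cell development, at -1.68 ± 0.69 against VLNT. Without LE4, 5 of 12 were called lower and 1 higher against LE, where 17.2% of all genes were called lower and 14.7% higher.

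Further resident genes were lower for 12 of 13 against VLNT, with a median of -0.50, beside 53.3% of all genes. Against LE they were lower for 8 of 13, with a median of -0.35, close to the 54.4% of all genes, and without LE4 4 of 13 were called lower, beside 17.2% of all genes. The complement gene C1qc was at -1.14 ± 0.66 and the scavenger receptor Stab1 at -1.15 ± 0.47 against VLNT. Further lipid and lysosome genes were lower for 13 of 14 (median -1.03), with 8 of 14 called lower and 1 higher against LE without LE4, beside the same 17.2% and 14.7%. Fabp5, a fatty acid carrier also made by keratinocytes, had 15.5, 18.1, 140.0 and 64.3 CPM in VtA, 2290, 1561, 1262 and 482 CPM in VLNT and 3208, 1624, 1942 and 8.09 CPM in LE. It was lowest in LE4, VtA1 and VtA2, the libraries with the least keratinocyte RNA. Plin2, the lipid droplet coat protein, was at -1.29 ± 0.52 against VLNT.

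Inflammatory and alternative activation genes were lower for 10 of 12 (median -1.63), with 6 of 12 called lower against LE without LE4, beside 17.2% of all genes. Il1b, the inflammasome cytokine also made by neutrophils, had 0.25, 0.31, 1.57 and 0.36 CPM in VtA, 92.6, 46.1, 172 and 1.39 CPM in VLNT and 702, 95.2, 46.0 and 0.32 CPM in LE. VtA1 to VtA4 lay at or under 1.57 CPM, with VLNT4 and LE4 beside them. Il4ra, the receptor chain for interleukins that drive alternative activation, was at -2.14 ± 0.73 against VLNT and -2.49 ± 0.74 against LE.

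Levels in LE1, and to a smaller degree in VtA3, varied with transcript length. Over the 37 genes, the log2 ratio of LE1 to the mean of LE2 and LE3 had a Spearman rho of -0.42 with the longest transcript length, as a description across genes that share these libraries. Its median was 0.46 for the 13 genes under 1500 bases and -0.43 for the 14 genes over 3000 bases. Over 13779 tested genes the rho was -0.50, and for the ratio of LE2 to LE3 it was -0.0021. For the ratio of VtA3 to the mean of the other VtA libraries the rho was -0.33 over these genes and -0.30 over the 37, whose median log2 ratio was 1.65 for the short genes and 1.16 for the long ones. In TPM, Cd68 had 35.8 TPM in LE1 and 105 TPM in LE3, where its CPM were 42.4 and 49.98. The longest transcripts of Aif1, Trem2 and Cd14, the genes with large LE1 values, are 875, 1088 and 1641 bases, and the part of transcript length in those values was not tested.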

How the data were processed

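RNA of mouse hindlimb tissue was sequenced from libraries made with a stranded poly(A) kit, per the labels' protocols. The deposited table holds the authors' read counts per gene, with FPKM and TPM beside them, per the file headers. The submitters' processing notes list HISAT2 2.1.0 and StringTie 2.1.3b beside bcl2fastq 2.20.0 and Trimmomatic, with the builds mm10 and GRCh38. Neither the annotation nor the strand setting of the counting was given there. The deposited FPKM values were not used, and the deposited TPM values served for levels per length and for an alternative test on log2(TPM + 1).

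Counts of all 12 libraries were fitted together in edgeR 4.0.16 (R 4.3.3) with TMM scaling, filterByExpr, group means and the quasi-likelihood test, with Benjamini-Hochberg adjustment over the 19740 tested genes of each comparison. Calls are genes whose adjusted p was under 0.05. A standard error is the log2 fold change divided by the square root of the F statistic. Within-library differences used log2 CPM with a prior count of 2. DESeq2 1.42.0 and limma 3.58.1 (voom with sample weights, and log2 TPM) were alternatives, beside other scalings, no filter, tissue scores as covariates, the replicate number as a block and leaving out libraries. The edgeR script was first run on simulated data with known changes. The shares recovered are not reported here, so that run gives no measure of power for the comparisons above. No pair of libraries within a group held identical values. Library totals of 56042030 to 72540147 reads limit the precision of low genes such as Timd4, and floors of 3 reads cover counting error only.

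The members and lists were chosen with earlier results of these data known. Every member is named. Values in every library are given for the 14 resident, recruited, lipid or repair and leading general members and for the 3 others with the smallest edgeR p in each comparison with VtA. In VLNT against LE the 5 members with the smallest p are named, and of each pathway list the 2 genes with the smallest p in VtA against VLNT, except 1 that is not reported here. Further members and genes were named because they were called in an alternative. Promoters came from RefSeq, matched by symbol and gene ID (45679 of 45777 gene IDs, and all 37 members, were found in the RefSeq gene table), and transcript identity and length from the longest GENCODE transcripts.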

Additional observations from a re-analysis of the deposited data

Results flagged for a closer look

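Within a group of 4 libraries, 1 library lay far from the other 3 relative to the group's range in 7 of the 69 groups examined. About 1 in 20 would do so if the values were normal and independent. Since the genes share libraries and most values were CPM without logs, the 7 cannot be set against that rate. LE1 gave 2 of them, 268 CPM for Aif1 and 305.4 CPM for Cd14, against at most 15.2 CPM of Aif1 and 28.0 CPM of Cd14 in LE2 to LE4. Ly6c2 had 17.6 CPM in VLNT1, against 3.73 to 4.56 CPM in VLNT2 to VLNT4. Among the VtA libraries, VtA3 was the high one for Msr1, at 4.51 CPM, and for Trem2, at 2.28 CPM. Trem2 also had 17.8 CPM in VLNT2, against 3.71 CPM or less in the other VLNT libraries. The lipid or repair genes relative to the general genes were at -1.99 on the log2 scale in LE4, against 0.96 to 1.39 in LE1 to LE3.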

How the results depend on the processing

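Called genes for VtA against VLNT numbered 0 with all libraries, 152 by DESeq2, 3606 by limma-voom with sample weights, 1 with the 2 groups alone, 1 without LE4 and VtA1, 4 without LE1 and LE4, and 0 to 10 with 1 library left out. For VtA against LE they numbered 0, 797 by DESeq2, 10639 by limma-voom, 4148 without LE4 and VtA1, 6837 without LE1 and LE4, and 0 to 6298 with 1 left out, the highest being without LE4. For VLNT against LE, DESeq2 called 1 and limma-voom 1362. Members lower in VLNT than in LE numbered 13 with log2(TPM + 1), 8 with log2(TPM + 0.1) and 8 to 32 with 1 library left out. The other 362 values of counts, medians and within-library differences under an alternative stayed within 1.5 times or 1 SD. The SD of the members' median between libraries was 1.37 on the log2 scale, a wide band beside the medians themselves. The smaller medians of the VtA comparisons with the keratinocyte and muscle scores fell inside it. So did medians of -0.78 to 0.21 for VLNT against LE with 1 library left out.

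Directions turned in 21 of 975 single-gene values. Against VLNT, Folr2 was at -0.32 with limma-voom, -0.37 with log2(TPM + 1) and -0.43 with log2(TPM + 0.1), and between -0.34 and 0.58 with 1 library left out. Cd163 ran between -0.77 and 0.093 on leaving 1 out, and Ccr2 was at 0.0072 with the keratinocyte score. Against LE, Adgre1 was at 0.018 with the keratinocyte score, 1.02 with the muscle score and between -1.01 and 0.31 with 1 left out. Folr2 was at -0.15 with limma-voom and between -0.15 and 0.89, and Timd4 at -0.0046 with log2(TPM + 0.1), -0.013 without LE4 and VtA1 and between -0.094 and 0.49. Mrc1 was at 0.61, Ly6c2 at 0.27 and Gpnmb at 0.43 with the muscle score, and Mrc1 between -1.10 and 0.22. Between VLNT and LE, leaving out 1 library gave -3.80 to 0.016 for Aif1 and -1.68 to 0.22 for Laptm5. The causes were not tested.

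Same-numbered libraries did not deviate together in every pair, so the numbers were not taken as pairs. With the replicate number as a block, 0 genes were called in each comparison, and 33, 32 and 21 members were lower (medians -1.36, -1.35 and -0.07) for VtA against VLNT, VtA against LE and VLNT against LE. The widest shift of the median of all genes was -0.50 with log2(TPM + 0.1) for VtA against VLNT, where the members' median lay 1.51 below it. Values of Timd4, Marco and Clec4e are imprecise, since these genes had few or no reads in some libraries.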
